A study of Mus musculus with 32 samples.

Results

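Small nucleolar RNAs (snoRNAs) were described in sorted blood progenitors of mice with altered U2af1, the gene of a splicing factor that recognises the end of introns. The 47 genes described are the table's rows with the biotype snoRNA in the GENCODE mouse annotation and a total of at least 100 counts over the 32 libraries. They were 47 of 240 snoRNA rows and of 27728 rows in all, and the other 193 snoRNA rows had lower totals. The members were chosen by their summed counts in these libraries, with no other value: Gm25517, Gm23245 and Gm23105 lay just inside the required total with 101, 102 and 104 counts, and Snord110, Gm25483 and Snord87 just outside with 96, 95 and 94. A total can be reached through a single set of libraries in which a gene is high, so counts over the members describe them and support no general statement about snoRNAs.

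RNA was sequenced from progenitors negative for lineage markers and Sca1 and positive for cKit, after removal of ribosomal RNA. Fetal liver gave 15 of the 32 libraries, taken at stage E14.5, all labelled untreated. Batch A held U2af1(flox/flox) embryos with no Cre (flox control, n = 3), Vav1-Cre embryos with U2af1(wt/flox) (heterozygous deletion, n = 3), Vav1-Cre embryos with U2af1(flox/flox) (homozygous deletion, n = 3) and 1 Vav1-Cre library with no other allele named (Cre only). Batch B held the other Cre-only library and 4 libraries of Vav1-Cre embryos with U2af1(wt/S34F), an allele with the S34F substitution. Vav1-Cre is active in blood cells, so cells of other kinds in the liver keep their floxed alleles. The other 17 libraries came from adult bone marrow. All adult mice carried Mx1-Cre, the transactivator written as rTA, and tgU2AF1(WT), a transgene of wild-type U2AF1 that doxycycline induces. The dosed mice had U2af1(flox/S34F). Injected pIpC, a synthetic double-stranded RNA, switched on Mx1-Cre in them, and their feed held doxycycline. The feed had 1250 ppm for 4 libraries, 2500 ppm for 6 and 10000 ppm for 4. The untreated wild type (n = 3) had U2af1(wt/wt) and neither agent. Genotype, pIpC and doxycycline therefore differ at once between each dosed group and the wild type and cannot be told apart. The labels do not say whether replicates of a group were separate animals, so the p-values measure the spread between these libraries, which may be technical.

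SnoRNAs guide chemical marks on other RNAs, mainly ribosomal RNA, inside the nucleolus. Those of the C/D class carry a C box near the 5′ end and a D box near the 3′ end, bind fibrillarin, and guide 2′-O-methylation. Those of the H/ACA class fold into hairpins with an ACA box close to the 3′ end, bind dyskerin, and guide pseudouridylation. In mammals most lie in introns of host genes and are cut from the excised intron, with exonucleases trimming the ends up to the bound proteins, so they pass through splicing without becoming mRNA.

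The C box was searched as TGATGA in the first 20 bases, the D box as CTGA in the last 20 bases, and the ACA box as ACA exactly 3 bases before the 3′ end, on the annotated strand and with no overlap between the C and D boxes. Both TGATGA and CTGA were found in 12 of the 47 members (25.5%), in 294 of 1447 annotated snoRNA genes between 68 and 194 bases (20.3%) and in 5 of 4999 other annotated transcripts of that length (0.10%). The ACA box was found in 25 members (53.2%), in 268 of the annotated snoRNA genes (18.5%) and in 124 of the other transcripts (2.48%). A member was placed by its symbol, Snord for C/D and Snora for H/ACA, and where the symbol gave no class by these boxes. That gave 14 C/D members of 68 to 110 bases, 8 by symbol and 6 by boxes, and 26 H/ACA members of 122 to 149 bases, 7 by symbol and 19 by the box. The remaining 7 members had neither and are called members with no class. A match describes the letters and does not show that an RNA works as a guide.

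The sequences below are those that the results turn on, read 5′ to 3′ from the GENCODE M21 transcripts on GRCm38, with boxes in capitals. The C/D members shown first are those whose values per library are given below. Snord49a lies at chr11:62603450-62603521 (plus strand), Snord104 at chr11:106500993-106501062 (plus strand), and Snord32a and Snord34 lie close together at chr7:45127382-45127464 and chr7:45126601-45126670 (minus strand).
Snord49a: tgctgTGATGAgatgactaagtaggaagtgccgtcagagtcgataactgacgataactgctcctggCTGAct
Snord104: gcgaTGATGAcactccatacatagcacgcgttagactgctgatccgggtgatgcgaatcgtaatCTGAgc
Snord32a: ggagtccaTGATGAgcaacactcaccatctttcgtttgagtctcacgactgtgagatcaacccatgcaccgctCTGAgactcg
Snord34: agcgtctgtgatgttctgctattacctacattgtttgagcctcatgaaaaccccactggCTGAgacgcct
Snord34 holds CTGA, while TGATGA is not in its first 20 bases. The H/ACA members shown next hold the most abundant member, Gm22154, and its near copy Gm25788, both in introns of Pabpc4 at chr4:123293152-123293282 and chr4:123291344-123291474 (plus strand). They differ by 4 edits over 131 bases.
Gm22154: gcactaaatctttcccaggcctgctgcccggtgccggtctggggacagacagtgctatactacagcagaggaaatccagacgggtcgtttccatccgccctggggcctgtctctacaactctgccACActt
Gm25788: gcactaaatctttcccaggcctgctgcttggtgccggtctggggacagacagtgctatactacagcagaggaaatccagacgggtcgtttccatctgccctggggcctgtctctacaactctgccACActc
Gm26165, in an intron of Snx5 at chr2:144261589-144261726 (minus strand), and Gm22362, a member with no class in an intron of Ybx3 at chr6:131380273-131380406 (minus strand), were both low in the adult low-dose group.
Gm26165: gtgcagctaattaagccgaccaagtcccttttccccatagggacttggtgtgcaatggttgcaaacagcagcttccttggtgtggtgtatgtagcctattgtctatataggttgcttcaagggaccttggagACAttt
Gm22362: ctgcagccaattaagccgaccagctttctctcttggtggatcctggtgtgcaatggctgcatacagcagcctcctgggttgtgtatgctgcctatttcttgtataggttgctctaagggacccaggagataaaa
Gm22362 ends without the ACA box at the searched position.

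Near copies make some counts uncertain, because the tool used for counting and its treatment of reads with several matches are not given in the sources used here. Of the 47 members, 16 had another snoRNA row in the table with at least 80% of its bases the same, by edit distance over the longer length. Gm25788 and Gm24620 differed by 3 edits, Gm24233 and Gm22786 by 3, and Gm23442 and Gm23105 by 7. Gm23346 differed by 2 edits from Snora5c, a row under the total with 47 counts. Snora43 overlaps a second annotated gene of the same name on its own strand, which makes its count uncertain too.

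The members were sparse. Their counts summed to between 116 and 3631 per library, of total counts between 26588099 and 71251200. Summed per library they came to 2.80 to 66.0 counts per 1000000 (CPM, on the deposited totals). The H/ACA members held 66.6% of all member counts, the C/D members 21.1% and the members with no class 12.3%. Per kilobase of annotated length, the level averaged over the 9 groups was highest for Gm22154 at 29.9 CPM per kb, then Snord49a at 27.0, Gm23639 at 18.6 and Gm26165 at 18.5, and lowest for Gm24346 at 0.340. The median was 2.44 CPM per kb over the C/D members and 1.16 over the H/ACA members. In all 32 libraries a count above 0 was found for 6 H/ACA members, for 1 member with no class and for 0 of the 14 C/D members. In these bulk samples fewer cells with an RNA and less of that RNA per cell cannot be told apart.

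**Figure D1:**
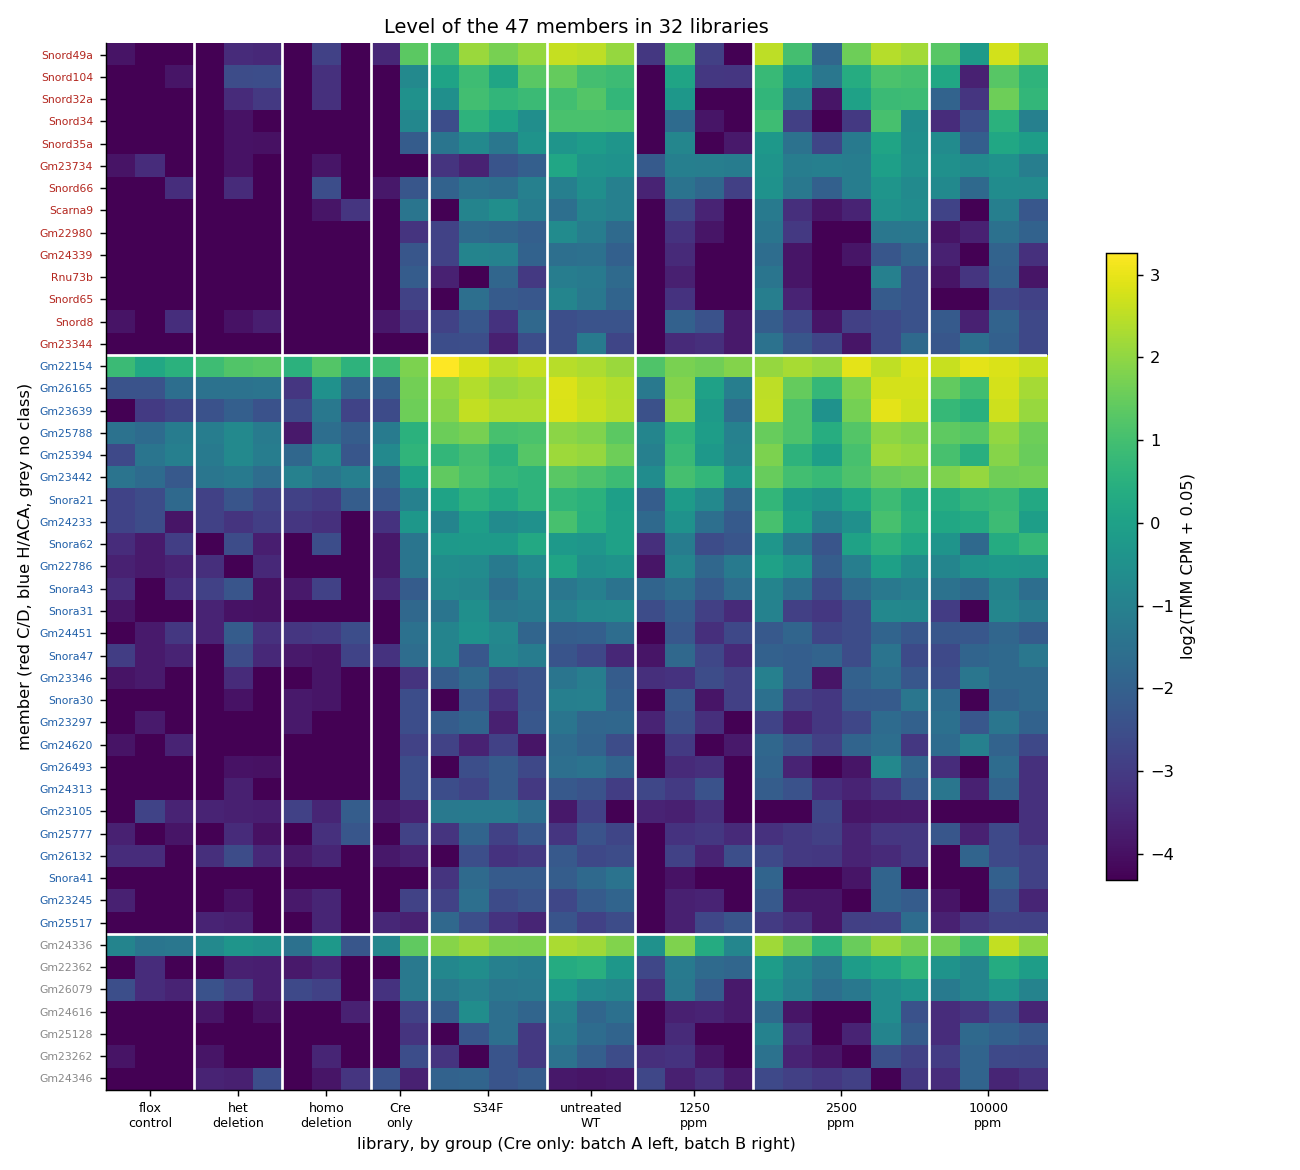
Level of each of the 47 members (rows, red names C/D, blue H/ACA, grey no class) in each of the 32 libraries (columns, by group), as log2 of TMM-scaled CPM plus 0.05. The dark columns of batch A at the left and the darker 1250 ppm columns stand out, with replicate 3 the brightest of the 1250 ppm libraries.

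The sort itself was visible in the table: Kit ran from 239 to 776 CPM, Cd34 from 208 to 590 and Mpo from 7472 to 34071 over the 32 libraries. Hepatocyte markers (7 of 9 in the table) summed to 10.3 to 515.5 CPM in batch A, 26.3 to 53.1 in batch B and 13.7 to 41.6 in the adult libraries. In the adult libraries that sum was nearly all Trf (13.7 to 41.1 CPM, TMM-scaled), with Alb, Ttr and Fgb at 0 in every library, and Cd3e, a T-cell gene, reached at most 2.25. U2af1, Ly6a (which encodes Sca1) and the erythroid markers were not analysed here, so neither the genotypes nor the Sca1 gate could be checked. Of 14 snoRNAs known for pre-rRNA processing, such as U3, U8 and U14, 0 were members, but only Rnu3b4, a U3 gene, was found by its symbol. It was at most at 0.114 CPM, and the levels of the others are not known here.

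The snoRNAs differed widely between the fetal batches named in the labels. The member sum was 2.80 to 6.70 CPM in the 10 libraries of batch A and 29.7 to 60.6 CPM in the 5 of batch B, so the batches did not overlap, and the means stood 10.8-fold apart (4.4 ± 1.27 against 47.4 ± 11.3, SD). For the C/D members the means were 0.126 and 10.1 CPM, an 80.4-fold difference, and for the H/ACA members 3.67 and 31.5 CPM, an 8.60-fold difference. All 47 members had a higher mean in batch B. In 31 of the 47 every batch B library lay above every batch A library, against 6.44% of the 14975 rows with a total of at least 100. Of the other small RNA biotypes, snRNA stood 3.76-fold apart, scaRNA 7.71-fold and miRNA 3.96-fold. The biotypes misc_RNA, sense_intronic and TEC (unverified transcripts) stood 3.57-fold, 2.22-fold and 2.26-fold apart, so rows outside the small RNA classes differed too. Mitochondrial tRNA genes, with 0 to 3 counts per library in batch A and 9 to 56 in batch B, did not overlap either. The sum of the 31 host genes in the table stood at a ratio of 0.992. All S34F libraries were in batch B and all deletion libraries in batch A, so the genotype and the batch cannot be told apart outside the Cre-only pair. The design text of the series itself names batch effects as a possible confounder of fetal expression.

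The same genotype was present in both batches as the 2 Cre-only libraries. With exact binomial 95% intervals, which cover counting error only, the member sum was 4.56 CPM (3.99 to 5.18) in the Cre-only library of batch A and 29.7 CPM (27.7 to 31.8) in that of batch B, 6.52-fold higher. The C/D members had 4 counts in the first and 179 in the second, or 0.0786 CPM (0.0214 to 0.201) and 6.20 CPM (5.32 to 7.17). The H/ACA members had 3.77 CPM (3.26 to 4.34) and 19.4 CPM (17.8 to 21.1). In batch A the Cre-only library had 0 counts for 26 members, 11 of them C/D, against 3 members at 0 in batch B. The batch B library was at least 2-fold above the batch A library in 31 of 47 members, against 10.2% of the 14975 rows with a total of at least 100 (floor 3 counts). Within this 1 genotype the batches thus stood 78.9-fold apart for the C/D members and 5.14-fold apart for the H/ACA members.

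Snord49a, a C/D guide of ribosomal RNA methylation, had a TMM-scaled level of 0 to 0.0893 CPM in the 10 batch A libraries with a median of 0.00790, and 2.51 (Cre only), 1.83, 4.30, 3.20 and 4.12 CPM in batch B. No batch A library came near the lowest batch B library. Snord34, another C/D guide, had 1 count over all 10 batch A libraries and 17, 4, 45, 34 and 35 counts in the Cre-only and S34F libraries of batch B. Snord32a, whose gene lies beside that of Snord34, was at 0 in 7 of 10 batch A libraries, reached 0.0688 CPM in the others, and ran from 0.640 to 1.89 CPM in batch B. Among members at 0 in all 10 libraries of batch A (7 in all, 5 of them C/D), Gm24339 was at least 53.2-fold and Gm22980 at least 31.7-fold higher in batch B, against a floor of 3 counts over batch A.

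Among H/ACA members, Gm26165 had 0.0652 to 0.661 CPM in batch A (median 0.252) and 3.09 to 5.20 CPM in batch B (median 4.26). Gm23639 had 0 to 0.357 CPM (median 0.113) and 2.96 to 5.84 CPM (median 5.0). Gm22154 had the smallest ratio among the 6 most counted members of batch A, at 1.12 to 2.41 CPM in batch A and 3.39, 9.57, 6.90, 5.29 and 5.96 CPM in the Cre-only and S34F libraries of batch B, a 3.50-fold ratio of means. It supplied 34.2% to 44.9% of the member counts of each batch A library, against 12.9% to 23.8% in batch B. The smallest ratio of all 47 was that of Gm26132, at 1.5, from 23 counts in batch A and 11 in batch B.

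The batch term of edgeR's quasi-likelihood fit over the 15 fetal libraries compares those 2 Cre-only libraries, the lone library of each batch being assumed to vary like the other groups. Its standard errors and p-values therefore borrow the spread of other groups, and the differences between these 2 libraries have no replicate check. It called 3 of 34 members tested, all higher in batch B, where 0.250% of all 13973 rows tested were called higher and 0.837% in either direction. Snord49a stood 5.97 ± 1.15 (SE) higher on the log2 scale (edgeR adjusted p = 0.0293), Gm23639 4.69 ± 0.88 (adjusted p = 0.0281) and Gm26165 4.02 ± 0.86 (adjusted p = 0.0427). The median fitted log2 difference was 4.36 over the 34 members, 6.24 over the 11 C/D and 2.97 over the 18 H/ACA members, beside 0.01 over all rows tested. With the 11 members at 0 in 1 of these libraries set to their bound and 6 at or under 3 counts in both left out, the 3 medians were 2.48, 2.87 and 2.23. Without S34F replicate 3 or replicate 4, 0 members passed, without flox control replicate 3 the count was 6, and without heterozygous deletion replicate 3 it was 5.

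**Figure D2:**
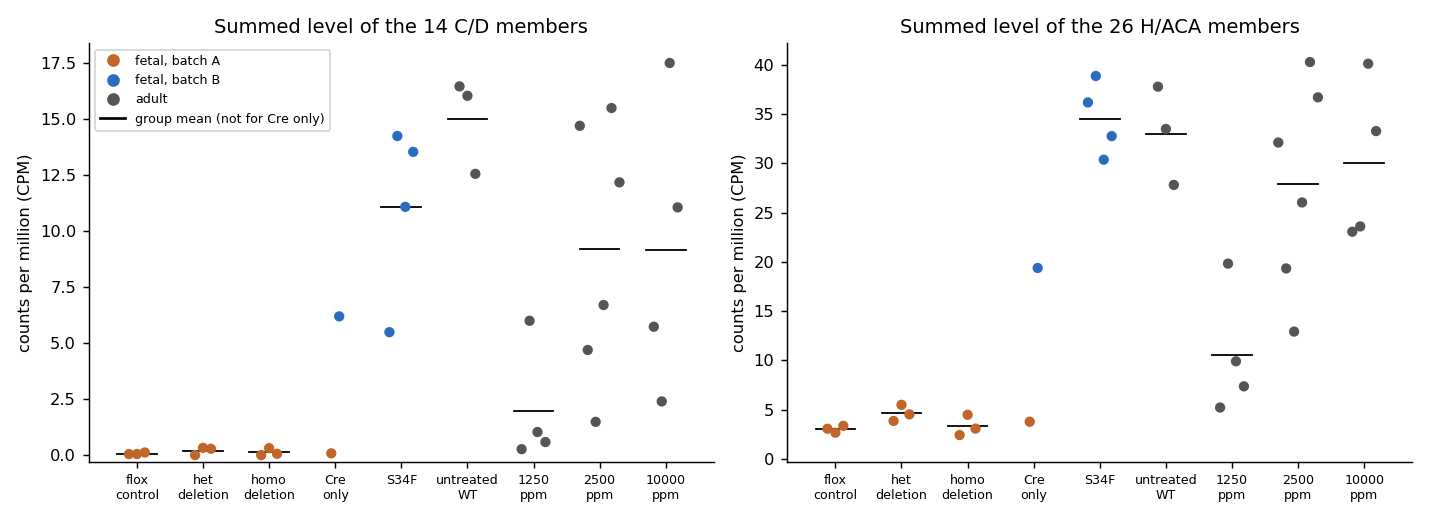
Summed level of the C/D members (left) and of the H/ACA members (right) in each library, in CPM on the deposited totals, by group. Points are libraries and bars are group means, and the 10 batch A points lie at the bottom of both panels, from 0 to 0.323 CPM for C/D and from 2.42 to 5.49 CPM for H/ACA.

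Within batch A no tested snoRNA passed the threshold in either deletion of U2af1. The member sum was 3.71, 3.13 and 3.85 CPM in the flox control, 4.58, 6.70 and 5.67 CPM in the heterozygous deletion, and 2.80, 5.61 and 3.36 CPM in the homozygous deletion. The heterozygous libraries lay above all control libraries, and the homozygous libraries lay on both sides of them. Hepatocyte markers summed to 84.3, 515.5 and 331 CPM in the flox control, 100.3, 45.8 and 45.9 CPM in the heterozygous deletion and 23.6, 15.5 and 10.3 CPM in the homozygous deletion, and lymphoid markers to 7.29 to 24.4, 8.10 to 15.9 and 0.264 to 0.672 CPM in the same order. Macrophage markers summed to 39.1 to 45.7, 22.4 to 33.6 and 8.62 to 14.7 CPM. Kit was at 484 to 571 CPM in the flox control and 239 to 324 CPM in the homozygous deletion (TMM-scaled). Cd34 was at 418 to 493 and 211 to 352 CPM, and Gata2 at 261 to 280 and 509 to 527 CPM. The ranges of Ptprc, Mpo and Myb, the other progenitor markers, overlapped between these groups. The part of all these markers in the member values was not tested. The filter on low counts left 6 members to test, Gm22154, Gm24336, Gm25394, Gm26165, Gm23442 and Gm25788, and 0 of the 14 C/D members.

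For the homozygous deletion over the flox control, edgeR called 0 of these 6 members, DESeq2 called 0 and 0 had an unadjusted p under 0.05, where 41.0% of the 12678 rows tested were called. An unadjusted p under 0.05 was found for 6245 of those rows in edgeR. Gm22154 had 1.41, 2.32 and 1.46 CPM in the homozygous deletion and 1.74, 1.12 and 1.38 CPM in the flox control. Its log2 difference was 0.26 ± 0.27 (SE), with an edgeR adjusted p of 0.476. Gm25788, its near copy, had 0.0217, 0.286 and 0.187 CPM against 0.316, 0.263 and 0.403 CPM, a log2 difference of -1.0 ± 0.60 (edgeR adjusted p = 0.211). In the heterozygous deletion against the flox control edgeR called 0 of 6 members, as did DESeq2, with 1 at an unadjusted p under 0.05, where 0.0316% of rows were called. Among the 12678 rows tested, 1120 had such an unadjusted p. All 6 fitted differences were positive there, from 0.42 to 0.75 on the log2 scale. In the homozygous against the heterozygous deletion edgeR and DESeq2 called 0 of 6, with 1 at an unadjusted p under 0.05, where 42.3% of rows were called. Such an unadjusted p was found for 6404 of the 12678 rows tested. Without homozygous deletion replicate 3 edgeR called 2. These tests rested on 47 to 175 counts of Gm22154 per library and at most 48 of any other tested member in these 9 libraries. The smallest difference that they could detect was not worked out.

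The S34F libraries were set against the lone Cre-only library of their batch. The member sum was 47.6, 60.6, 47.5 and 51.7 CPM in the 4 S34F libraries and 29.7 CPM in the Cre-only library, which lay below all of them. Gm22154 had 9.57, 6.90, 5.29 and 5.96 CPM against 3.39 CPM, a log2 difference of 1.05 ± 0.37 (edgeR adjusted p = 0.278). Snora21, an H/ACA member, had 1.01, 1.41, 1.15 and 1.47 CPM against 0.458 CPM, a log2 difference of 1.47 ± 0.60 (edgeR adjusted p = 0.347). Gm23105 had 12, 12, 13 and 16 counts in the S34F libraries, 1 in the Cre-only library and at most 6 in any of the other 27 libraries. It was chosen after its values were seen, and its near copy Gm23442 was more abundant throughout. Of 34 members tested, edgeR called 0 and DESeq2 0, where 0.372% of rows were called in edgeR. The median log2 difference over the members was 0.86, beside 0.02 over all rows tested, and with 1 control library a difference between genotypes and one between these libraries cannot be told apart.

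In adult marrow the mean member sum was lowest in the mice on the lowest doxycycline dose. The member sum was 62.0, 56.4 and 45.7 CPM in the untreated wild type and 6.42, 30.1, 12.6 and 8.71 CPM at 1250 ppm (replicates 1, 3, 4 and 5), so every low-dose library lay below every wild-type library. The means stood 3.78-fold apart for all members, 7.63-fold for the C/D members and 3.12-fold for the H/ACA members. Replicate 3 of the 1250 ppm group stood apart from the other libraries of its group. Without it the ratios were 5.91, 24.0 and 4.41. Sums of lymphoid and of mature myeloid markers did not overlap between these groups either, while those of macrophage markers did. Lymphoid markers (3 of 3 in the table) summed to 0.252 to 0.778 CPM in the wild type and 4.24 to 10.1 CPM at 1250 ppm, and Cd3e was at most at 0.117 CPM in both. Mature myeloid markers (2 of 3) summed to 53.6 to 92.6 CPM and 29.1 to 38.6 CPM, and macrophage markers (3 of 3) to 4.82 to 13 CPM and 9.67 to 49.3 CPM. Their part in the result was not tested.

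Every low-dose library lay below every wild-type library for 38 of the 47 members, against 16.6% of the 14975 rows with a total of at least 100. Of 41 members tested with edgeR's quasi-likelihood test over all 17 adult libraries, 16 fell and 0 rose, where 4.66% of the 13338 rows tested were called lower and 11.4% in either direction. An unadjusted p under 0.05 was found for 37, against 4069 of the 13338 rows tested, and 40 of the 41 fitted differences were negative. The median log2 difference was -2.18 over the 41 members, -3.16 over the 14 C/D and -2.02 over the 21 H/ACA members, beside 0.01 over all rows tested. By class, 6 C/D members, 7 H/ACA members and 3 with no class passed.

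This count rested on few libraries. Without wild-type replicate 1 or without wild-type replicate 2 edgeR called 0 members, without wild-type replicate 3 it called 8, without 1250 ppm replicate 1, 4 or 5 it called 2, without 2500 ppm replicate 6 it called 9, and without 1250 ppm replicate 3 it called 26. DESeq2 called 26 with all libraries. The share of all rows called in each fit was not set beside these counts, so they show only how the calls depend on the fit. The median log2 difference stayed between -3.02 and -1.99 over all 17 omissions.

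Snord34 had 2.06, 2.09 and 2.05 CPM in the wild type and 0, 0.262, 0.0171 and 0 CPM at 1250 ppm, a C/D member nearly absent from the low dose. It fell by 4.73 ± 1.48 (SE) on the log2 scale (edgeR adjusted p = 0.0495). Snord49a had 5.98, 5.66 and 4.11 CPM against 0.0679, 2.26, 0.0854 and 0 CPM, and Snord32a 1.90, 2.28 and 1.57 CPM against 0, 0.757, 0 and 0 CPM. In both, replicate 3 of the low dose lay far above the rest of its group and still below the wild type, and neither passed, with edgeR adjusted p of 0.0818 and 0.119. Snord104 had 2.71, 1.96 and 1.79 CPM against 0, 1.03, 0.0683 and 0.0642 CPM (edgeR adjusted p = 0.0837).

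Gm25788, the near copy of Gm22154 in the same host, fell by 1.94 ± 0.41 on the log2 scale (edgeR adjusted p = 0.0134), from 3.77, 3.50 and 2.51 CPM to 0.492, 1.53, 0.888 and 0.449 CPM. Gm22362 fell by 2.16 ± 0.48 (edgeR adjusted p = 0.0150), from 1.21, 1.34 and 0.763 CPM to 0.102, 0.379, 0.256 and 0.235 CPM. Gm26165 fell by 2.18 ± 0.67 (edgeR adjusted p = 0.0461), from 7.21, 5.86 and 5.16 CPM to 0.374, 3.54, 0.974 and 0.428 CPM. Gm22154 itself had 5.44, 5.03 and 4.36 CPM against 2.22, 3.32, 3.02 and 3.57 CPM. Its groups did not overlap either, while its difference of -0.70 ± 0.23 was smaller and missed the threshold (edgeR adjusted p = 0.0545).

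**Figure D3:**
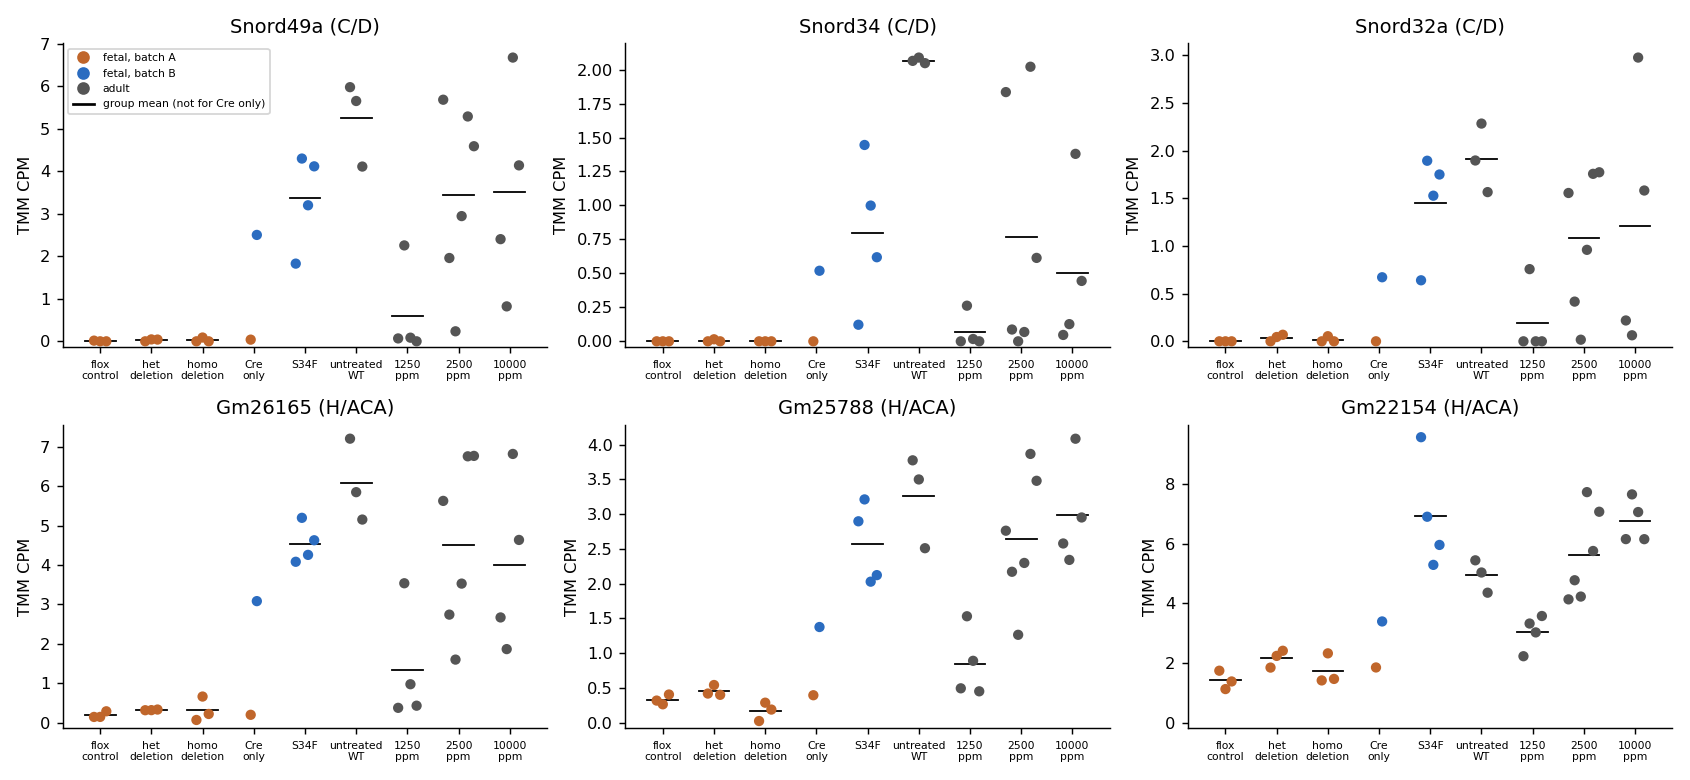
TMM-scaled CPM of 3 C/D members (top) and 3 H/ACA members (bottom) in each library by group, with bars at the group means. The 1250 ppm libraries lie below the wild type in each panel, and in every panel but that of Gm22154 their highest point is replicate 3.

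The higher doses lay closer to the wild type. At 2500 ppm the member sum ran from 16.6 to 62.9 CPM with a median of 45.4, and at 10000 ppm it was 33.0, 29.5, 66.0 and 50.4 CPM. Both groups overlapped the wild type, whose mean was 1.30-fold and 1.22-fold higher. Both also overlapped the 1250 ppm group. Its replicate 3 (30.1 CPM) lay above 10000 ppm replicate 2 (29.5 CPM) and 2500 ppm replicates 2 and 3 (28.0 and 16.6 CPM). For the C/D members alone the wild-type mean was 1.63-fold and 1.64-fold higher. Of 41 members tested against the wild type, edgeR and DESeq2 called 0 at 2500 ppm, where 0.487% of rows were called in edgeR, with 0 at an unadjusted p under 0.05. They also called 0 at 10000 ppm, where 1.27% of rows were called in edgeR, with 1 at an unadjusted p under 0.05. Of the 13338 rows tested, 2027 had such an unadjusted p at 2500 ppm and 2974 at 10000 ppm. The median log2 difference was -0.51 at 2500 ppm and -0.40 at 10000 ppm, with 38 and 33 of the 41 differences negative.

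Libraries of 1 dose differed widely in the C/D members. Snord34 ran from 0 to 2.02 CPM over the 6 libraries at 2500 ppm, with a median of 0.350, all below the 3 wild-type libraries at 2.05 to 2.09 CPM. It was the 1 member of 47 without overlap at 2500 ppm, against 3.82% of the 14975 rows. At 10000 ppm, where Snord34 had 0.0469, 0.127, 1.38 and 0.445 CPM, 5 of 47 members lay below the wild type without overlap (Snord34, Snord65, Rnu73b, Gm23734 and Gm24616), against 9.45% of rows. These counts, 2.13% of members at 2500 ppm and 10.6% at 10000 ppm, were under or near the shares of all rows. They mark nothing particular to the members. Snord32a spanned 0.0168 to 1.77 CPM at 2500 ppm and 0.0633 to 2.98 CPM at 10000 ppm. The C/D share of the member counts also differed within a dose. It was 8.94% in 2500 ppm replicate 3, which had the lowest member sum of its group, and 27.3% in replicate 1. At 10000 ppm it was 8.12% in replicate 2 and 26.5% in replicate 3, the libraries with the lowest and the highest sum. Mature myeloid markers summed to 252, 311, 61.3 and 20.2 CPM in replicates 1, 2, 3 and 4 at 10000 ppm. Lymphoid markers summed to 19.4, 26.5, 2.83 and 5.26 CPM in the same order. At 2500 ppm mature myeloid markers summed to 123 CPM in replicate 1 and 53.1 CPM in replicate 3, and lymphoid markers to 6.47 and 6.84 CPM. Their part in this spread was not tested.

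The highest and the lowest dose were compared within the same genotype and agents, and the comparison shares its 1250 ppm libraries with the one above. The edgeR test called 12 of 41 members, all higher at 10000 ppm, where 7.53% of rows were called higher and 18.1% in either direction. An unadjusted p under 0.05 was found for 20 of the 41, against 4358 of the 13338 rows tested. Of the 12, 9 were H/ACA, 2 had no class and 1 was C/D. In 15 of 47 members every 10000 ppm library lay above every 1250 ppm library, against 6.92% of the 14975 rows. The median log2 difference was 1.71, beside 0.02 over all rows tested, and all 41 differences were positive. Without 1250 ppm replicate 3 edgeR called 20 members, without replicate 1 or replicate 4 of that group it called 6, and without replicate 5 it called 5. Mature myeloid markers summed to 20.2 to 311 CPM at 10000 ppm and 29.1 to 38.6 CPM at 1250 ppm. Lymphoid markers summed to 2.83 to 26.5 CPM and 4.24 to 10.1 CPM in the same order. Their part in this comparison was not tested.

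Snora62, an H/ACA member in an intron of the ribosomal protein gene Rpsa, had 0.718, 0.253, 1.22 and 1.60 CPM at 10000 ppm and 0.0509, 0.408, 0.12 and 0.150 CPM at 1250 ppm, a rise of 2.36 ± 0.68 (SE) on the log2 scale (edgeR adjusted p = 0.0261). Its groups overlapped, because 10000 ppm replicate 2 lay below 1250 ppm replicate 3. Gm25788 rose by 1.82 ± 0.39 (edgeR adjusted p = 0.00694) with no overlap, from the low-dose values above to 2.58, 2.34, 4.08 and 2.95 CPM. Gm24233, in an intron of Mia2, rose by 1.81 ± 0.50 (edgeR adjusted p = 0.0218), from 0.255, 0.685, 0.290 and 0.171 CPM to 1.09, 1.2, 1.80 and 0.907 CPM. Its count may be shared with its near copy Gm22786. Snora43 had the smallest difference of the 3 most abundant members with a Snora symbol, at 0.321 to 0.446 CPM in the wild type, 0.171 to 0.291 CPM at 1250 ppm and 0.253 to 0.472 CPM at 10000 ppm, and it passed in neither comparison. Gm22154 rose by 1.16 ± 0.21 (edgeR adjusted p = 0.00451), to 6.15, 7.65, 7.06 and 6.15 CPM, above the 3 wild-type libraries as well.

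**Figure D4:**
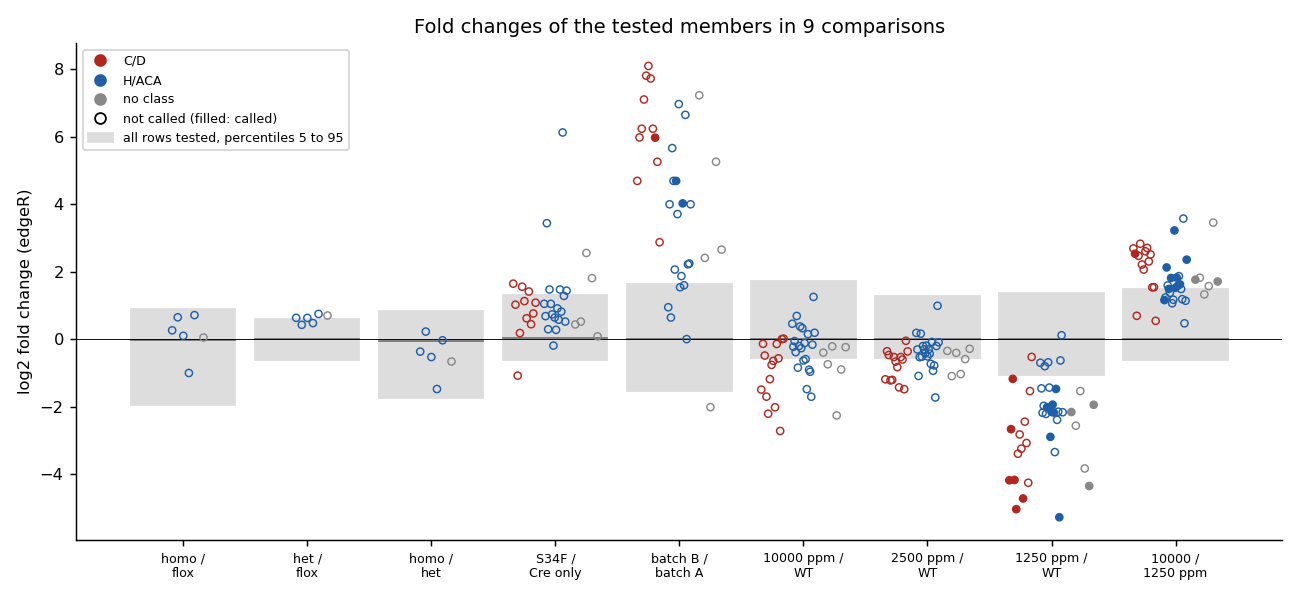
Log2 fold change of each tested member in the 9 comparisons, by class (red C/D, blue H/ACA, grey no class), filled where edgeR called it. Grey boxes span percentiles 5 to 95 of all rows tested, and the median of the members lies outside the box for the heterozygous deletion over the flox control (0.63), for batch B over batch A, for 1250 ppm over the wild type and for 10000 over 1250 ppm.

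Host genes were in the table for 33 of the 47 members, which lay in introns of the host in 28 and touched an exon in 5. Of the 16 members lower at 1250 ppm, 14 had a tested host, and the log2 difference of those hosts ran from -0.51 to 0.33 with a median of 0.01. Hosts of 2 of the 14 were called lower as well, Mia2 (-0.31 ± 0.08, edgeR adjusted p = 0.0231) and Cep295 (-0.51 ± 0.15, edgeR adjusted p = 0.0421). Among all 13338 rows tested 4.66% were called lower. In 10000 against 1250 ppm, 10 of the 12 called members had a tested host, and for 4 of them the host was called in the other direction. In that comparison 1415 of the 13338 rows tested were called lower. Pabpc4, the poly(A)-binding protein gene that holds Gm22154 and Gm25788, stood at -0.46 ± 0.12 (edgeR adjusted p = 0.0161) while both rose. This host is counted once for each of them, so the 4 members had fewer than 4 separate hosts. Counts of a host come mostly from its mature mRNA, and host introns were not counted here.

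**Figure D5:**
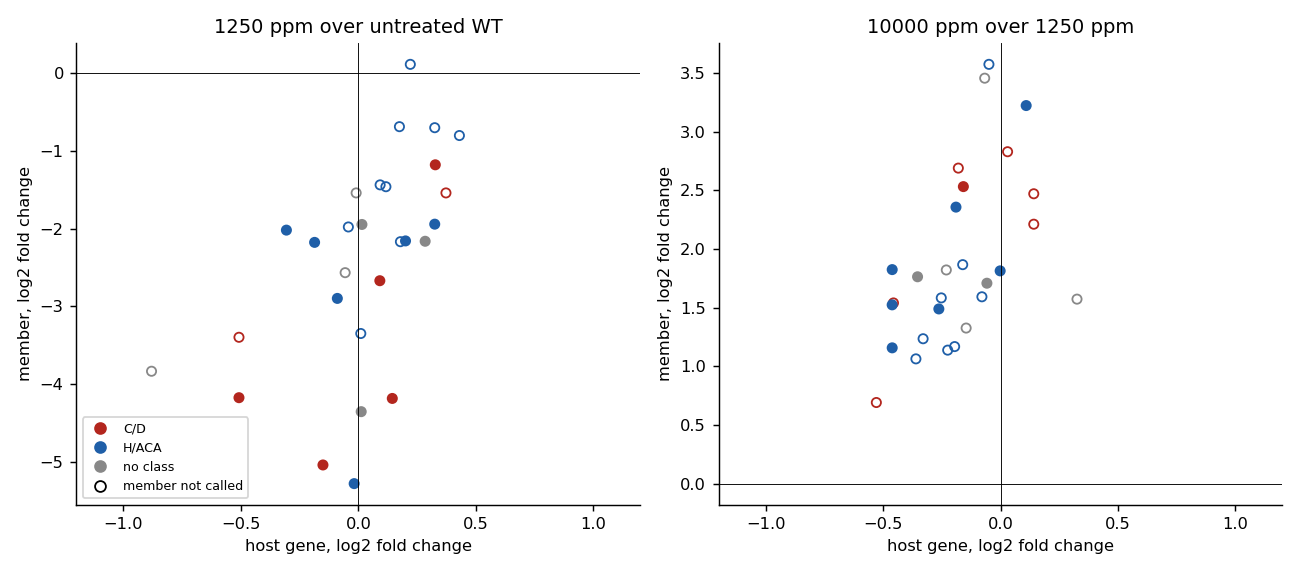
Log2 fold change of each member against that of its host gene, for 1250 ppm over the untreated wild type (left) and 10000 ppm over 1250 ppm (right). In both panels the hosts stay within 1 log2 unit of 0 while the members spread from -5.28 to 0.11 on the left and from 0.69 to 3.57 on the right.

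Proteins of snoRNA particles formed a list of 28 genes, of which 26 were tested in each fit. At 1250 ppm against the wild type 6 rose and 2 fell, where 11.4% of all rows tested were called, with a list median of 0.12 on the log2 scale. Nhp2, a core H/ACA protein, rose by 0.46 ± 0.13 (edgeR adjusted p = 0.0387), and Ruvbl2, a helicase of the assembly complex, by 0.60 ± 0.12 (edgeR adjusted p = 0.0109). Xrn2, a nuclear exonuclease that trims 5′ ends, fell by 0.62 ± 0.11 (edgeR adjusted p = 0.00764). Xrn2 was also the 1 gene of the list that passed at 2500 ppm (-0.49 ± 0.10, edgeR adjusted p = 0.0450) and at 10000 ppm (-0.46 ± 0.11, edgeR adjusted p = 0.0491) against the wild type, and in S34F against Cre only (-0.80 ± 0.07, edgeR adjusted p = 0.000182). In 10000 against 1250 ppm 12 of the 26 fell and 0 rose, where 18.1% of all rows tested were called in either direction. Among them were the methyltransferase gene Fbl (-0.35 ± 0.12, edgeR adjusted p = 0.0458) and the H/ACA genes Nhp2 and Gar1. For the homozygous deletion over the flox control 4 rose and 8 fell, where 41.0% of all rows tested were called, a share near that of the list. Dbr1, which opens intron lariats, rose by 0.42 ± 0.06 (edgeR adjusted p = 0.000328), and Nop56, a core C/D protein, fell by 0.43 ± 0.06 (edgeR adjusted p = 0.000328).

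Other RNAs moved beside the snoRNAs in the same libraries. The snRNA sum was 8.57, 7.64 and 7.79 CPM in the wild type and 1.62, 3.74, 2.24 and 1.73 CPM at 1250 ppm, again with replicate 3 the highest of its group. The scaRNA sum did not follow this, with a wild-type mean 1.09-fold that at 1250 ppm, nor did the miRNA sum (0.669-fold). Counts on mitochondrial tRNA genes were 38, 40 and 41 in the wild type, 1, 2 and 0 in 1250 ppm replicates 1, 4 and 5, and 19 in replicate 3. The labels give a fragment size of about 300 bases for the libraries, longer than any member, and the part that fragment or RNA length plays in these differences was not tested.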

How the data were processed

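Total RNA of 32 sorted samples was depleted of ribosomal RNA and sequenced as paired reads of 150 bases from fragments of about 300 bases, per the labels. Reads were aligned to GRCm38 with HISAT2, whose version is 2.1.0 per the series' design text, while the submitters' processing notes list another. The authors deposited raw counts per gene. The counting tool, its strand setting and the annotation release are not given in the sources used here, so a member's count can hold reads of its host or of a near copy. Biotypes, coordinates and sequences came from GENCODE M21, which named 27690 of the 27728 rows and left 38 unnamed.

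Genes were tested with edgeR 4.0.16 (R 4.3.3, limma 3.58.1): TMM scaling, its filter on low counts, the quasi-likelihood test and Benjamini-Hochberg adjustment over all rows tested, with a call at an adjusted p under 0.05. One fit held the 9 deletion and flox control libraries, another the 17 adult libraries, and another the 15 fetal libraries with group and batch as terms. The last gave S34F against Cre only and the batch comparison. Sums are CPM on deposited totals, and single members are TMM-scaled CPM. DESeq2 1.42.0, another scaling, no filter, other sets of libraries, a replicate block and leaving out each library were tried. The code was tested on simulated data, with large changes placed in rows of higher counts than most members had. That does not show how the fits behave at the members' counts. No pair of replicates agreed within sampling noise: over 46 pairs, the chi-square per degree of freedom was at least 3.85.

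Members named with values were the 3 most abundant with a Snord and with a Snora symbol, and in each comparison up to 3 called members with the largest change, where the group with more counts averaged 50 or over. Gm22154, Gm23105, Gm26132, Gm24339 and Gm22980 were described after their values were seen, as were values of named members in comparisons whose rule did not name them. The members and lists were chosen with earlier results of these data known. Intervals are exact binomial (Clopper-Pearson) and, with no molecular identifiers, cover counting error only.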

Additional observations from a re-analysis of the deposited data

Results flagged for a closer look

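Replicate 3 of the 1250 ppm group stood far above the other 3 libraries of its group in 5 of the 60 groups of values examined for a sample far from the rest. Its C/D sum was 6.0 CPM against 0.265 to 1.03 CPM in the others. Snord49a was at 2.26 CPM against 0 to 0.0854 CPM, and Snord34 at 0.262 CPM against 0 to 0.0171 CPM. Snord104 was at 1.03 CPM against 0 to 0.0683 CPM, and Snord32a at 0.757 CPM while the others had 0 counts. The library had 19 counts on mitochondrial tRNA genes, where the others had 0 to 2. Among the S34F libraries, Snora62 was at 1.15 CPM in replicate 4 against 0.793 to 0.835 CPM in the others. Chance flags about 1 in 20 groups. The C/D sum holds the counts of Snord49a, Snord34, Snord104 and Snord32a, and all 5 values of replicate 3 come from 1 library. These 5 values are therefore not independent of each other.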

How the results depend on the processing

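Counts of called members in alternative fits, here and above, stand without the share of all rows called in the same fit. They show only how the calls depend on the fit. At 1250 ppm against the wild type the count of 16 called members became 26 with DESeq2, 4 without the filter on low counts and 2 with a replicate block, and ran from 0 to 26 with each library left out in turn. At 10000 against 1250 ppm the count of 12 became 6 with the replicate block and 5 with only the compared groups in the fit, and ran from 5 to 20 with a library left out. In batch B against batch A the count of 3 became 6 with DESeq2, 8 without the filter and 0 with the replicate block, and ran from 0 to 6. In the homozygous against the heterozygous deletion it ran from 0 to 2. In the other 5 comparisons it was 0 with each library left out. The mean member sum of the S34F libraries was 44.2 CPM on TMM-scaled library sizes, against 51.9 CPM on deposited totals. Without Gm22154 the mean sums were 2.19 CPM in the flox control, 3.47 in the heterozygous and 2.38 in the homozygous deletion, and 43.7 in S34F. No called result changed direction. The median log2 difference of the 6 members tested for the homozygous deletion over flox control, 0.18 with all libraries, was -0.51 without homozygous deletion replicate 3 and positive in the other alternatives run. The call of Gm26165 was lost under 12 and that of Snord34 under 11 of the 22 alternatives at 1250 ppm, and the call of Gm26165 between batches under 9 of 17. Same-numbered libraries correlated from -0.16 to 0.14 over 7 pairs of deletion and control libraries, so replicate numbers showed no clear pairing there. Over 19 adult pairs the correlation ran from -0.27 to 0.52, with 6 above 0.1. Between 10000 and 2500 ppm it was 0.34, 0.33, -0.27 and 0.52 for replicates 1, 2, 3 and 4. Whether some adult libraries were paired is therefore not settled, and the main fits used no pairing. Low counts limit the C/D members most, with 0 to 21 counts per library in batch A.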
